A study of Homo sapiens with 16 samples.

Results

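The genes described here encode proteins of the mitochondrial ribosome. They were chosen by name, as protein-coding genes of the count table whose symbol starts with MRPL or MRPS, with 82 pseudogenes and 7 antisense or divergent transcripts left out. This gave 78 of 62754 genes, of which 51 encode the large subunit, 26 the small subunit and 1, MRPS36, carries the name although its product is now assigned to the 2-oxoglutarate dehydrogenase complex. The cells were LNCaP, an androgen-sensitive line from a metastasis of human prostate cancer, either with intact p53 (WT) or with p53 knocked out by CRISPR (p53 KO). In each well 350000 cells were plated in phenol-free medium with serum, left to attach for 1 day and then given DMSO (vehicle) or 5 µM GCN2iB, an inhibitor of the kinase GCN2, for 48 h. RNA of 4 samples per combination of genotype and treatment was sequenced, 16 libraries in all. Whether the knockout cells are 1 clone or a pool, and whether the 4 samples of a group came from separate cultures, is not given in the sources used here, and if they did not, the p-values reflect technical spread alone.

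The mitochondrial ribosome translates the few mRNAs of the mitochondrial genome, which encode core subunits of the respiratory chain and of the ATP synthase. All of its proteins are encoded in the nucleus, made in the cytosol and imported, and they join RNAs transcribed inside the organelle. The small subunit binds the mRNA and decodes it, and the large subunit forms the peptide bond. GCN2, the product of EIF2AK4, senses uncharged tRNA and phosphorylates the initiation factor eIF2, which slows cytosolic translation and favours translation of the transcription factor ATF4. p53 is a transcription factor whose best known targets include the cell cycle inhibitor CDKN1A.

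Total counts per library ran from 17418072 to 39915685, and levels are given as CPM, the reads of a gene scaled to a common library total after TMM normalization, so they are shares of a library and not amounts per cell. Fewer cells of a kind and less RNA per cell cannot be told apart in such bulk RNA. CDKN1A was at 274 ± 21.05 CPM in WT and 37.5 ± 3.72 CPM in p53 KO under vehicle. ATF4 fell with GCN2iB from 496 ± 40.2 CPM to 212 ± 11.7 CPM in WT (log2 change -1.22, edgeR quasi-likelihood test, adjusted p = 5.60e-12), and from 504 ± 33.5 CPM to 284 ± 6.09 CPM in p53 KO (-0.83, adjusted p = 6.27e-09). Under GCN2iB it was higher in p53 KO than in WT (log2 difference 0.42, adjusted p = 3.99e-05). All 9 luminal prostate markers were at 194 CPM or more in every library. The 4 blood markers stayed under 0.196 CPM and the summed level of the 3 basal markers at 2.05 to 4.26 CPM, of which KRT14 made nearly all. The 4 stromal markers summed to 14.3 to 26.03 CPM, mostly COL1A1. The summed luminal level was 6497 to 6807 CPM in WT vehicle and 5719 to 5960 in WT GCN2iB, and 6059 to 6178 in p53 KO vehicle and 5348 to 5820 in p53 KO GCN2iB.

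Of the 78 genes, 77 passed the count filter of edgeR and were tested. The exception, MRPL53, had 0 counts in all 16 libraries, and 45.2% of its exon bases are shared with CCDC142 on the same strand. Per kilobase of median transcript length, levels in WT vehicle spanned 0.291 to 439 CPM per kb with a median of 68.6 CPM per kb. MRPL51, MRPS27 and MRPL37 stood highest on that scale at 439, 365 and 294 CPM per kb. MRPS24, MRPL2 and MRPL46 stood lowest at 0.291, 1.96 and 3.44 CPM per kb. MRPS24, the counterpart of a bacterial protein at the mRNA entry of the small subunit, shares 23.2% of its exon bases with the readthrough gene URGCP-MRPS24. All 8 genes with a mean under 10 CPM share exon bases with another gene, and 5 genes (MRPL12, MRPL53, MRPL38, MRPS28 and MRPS17) share over 25% with a gene on the same strand. Reads on shared bases can go to either gene or to none, so these low levels are uncertain. The 82 pseudogenes held 0.0684% of the count of the 78 genes, so few reads were assigned to copies.

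GCN2iB raised most mitochondrial ribosomal protein genes in both genotypes, by small amounts. In WT cells 41 of 77 genes were called higher and 4 lower, while 11.6% of all 18549 tested genes were called higher and 13.6% lower (edgeR quasi-likelihood test, Benjamini-Hochberg adjusted p under 0.05, the threshold for every call here). In p53 KO cells 51 of 77 were called higher and 1 lower, against 11.4% and 8.71% of all genes. Of 13439 tested protein-coding genes, 1800 were called higher and 2199 lower in WT, and 1913 and 1348 in p53 KO. The median level of the members was 69.4 CPM, against 11.5 CPM over all tested genes. Among genes averaging at least 50 counts, 17.7% were called higher in WT and 13.9% in p53 KO, with 44 and 48 members. The median log2 change of the members was 0.27 in WT and 0.31 in p53 KO, where the medians of all tested genes were -0.03 and -0.01. The log2 changes ran from -0.20 to 0.62 in WT and from -0.28 to 0.68 in p53 KO. The largest rise was 1.60-fold, in MRPS18C in p53 KO. Against a 1.2-fold minimum (edgeR glmTreat), 7 genes were called higher in each genotype and 0 lower, against 2.26% of all genes called higher in WT and 1.42% in p53 KO. In p53 KO the count was 42 with library totals in place of TMM, where all genes gave 1402 higher and 2670 lower calls in place of 2119 and 1615.

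The same direction was seen in the summed level of the 78 genes per library. It was 5677, 5962, 6118 and 6509 CPM in WT vehicle and 6946, 6992, 7365 and 7562 CPM in WT GCN2iB, means of 6067 ± 347 and 7216 ± 297 (SD, n = 4). In p53 KO it was 5504, 5901, 5778 and 6150 CPM under vehicle and 6824, 7034, 6905 and 8406 CPM under GCN2iB, means of 5833 ± 269 and 7292 ± 748. Treated and vehicle libraries did not overlap in either genotype. The summed level was lowest in replicate 1 and highest in replicate 4 in all 4 groups. The fourth p53 KO GCN2iB library stood apart from the other 3, and without it 40 of 77 genes were called higher in p53 KO, against 9.32% of all genes. In WT the count was 35 without the first vehicle library or without the fourth GCN2iB library, against 10.3% and 9.83% of all genes. The genes made up 0.605% ± 0.0302 of all counts in WT vehicle and 0.704% ± 0.0232 in WT GCN2iB (SD, n = 4).

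**Figure D1:**
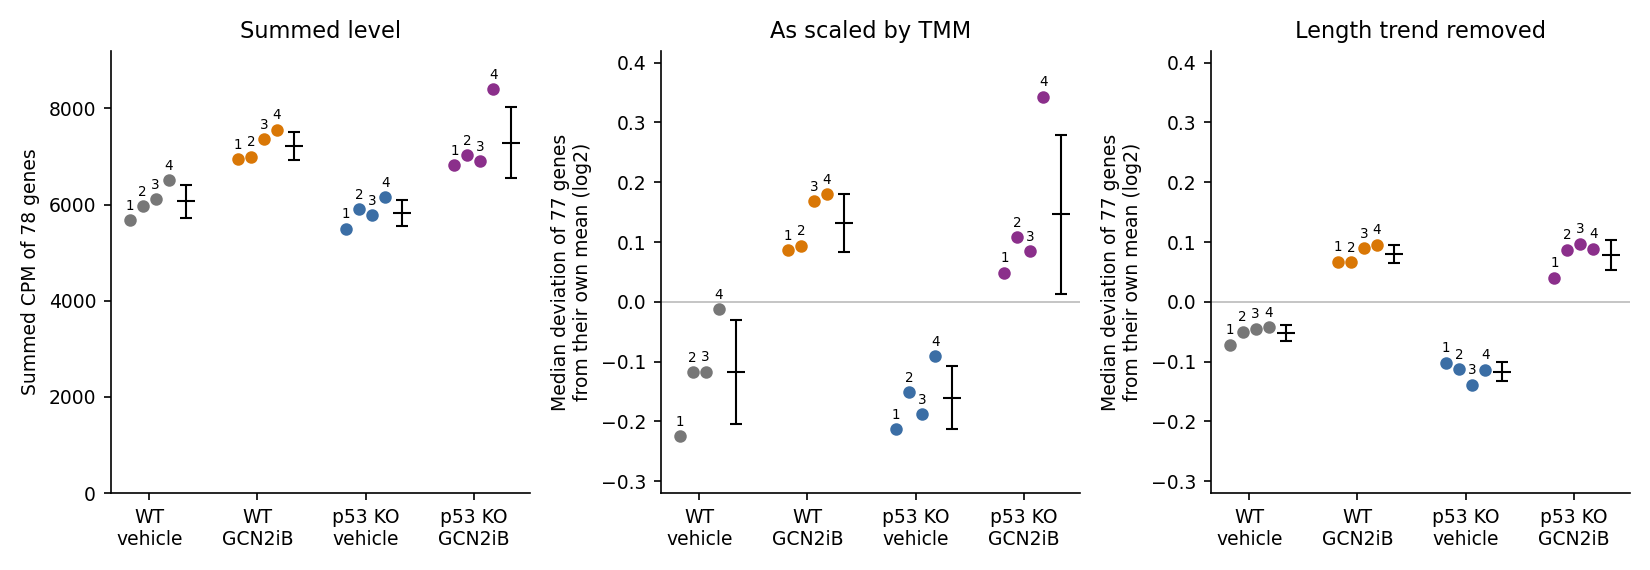
Level of the mitochondrial ribosomal protein genes in each of 16 libraries. Left, summed CPM of 78 genes; middle, median over 77 genes of the deviation of log2 (CPM + 0.5) from each gene's own mean; right, the same after removal of each library's trend on the length of the longest coding transcript. Points are libraries with their replicate number, and the bar beside each group is the mean ± SD of 4. The fourth p53 KO GCN2iB library is highest in the left and middle plots, at 8406 CPM and 0.34, and lies at 0.09 with the others of its group in the right plot.

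The vehicle and GCN2iB libraries of the genotypes are separate, so their calls can be set side by side. In both genotypes 37 genes were called higher, 4 only passed in WT and 14 only passed in p53 KO. Of all tested genes 11.6% were called higher in WT and 11.4% in p53 KO, so at most 11.4% were higher in both. A further 17 passed in neither, and 5 were called lower in 1 genotype and not called in the other. No member was called in opposite directions, and a test for a difference between the responses called 1 of 18549 tested genes. Of the 50 tested large subunit genes, 30 were called higher and 4 lower in WT (median log2 change 0.29), and 34 and 0 in p53 KO (median 0.32). Of the 26 small subunit genes, 11 and 0 were called in WT (median 0.19), and 17 and 1 in p53 KO (median 0.30). Among large subunit proteins with a counterpart in bacteria and those specific to mitochondria, 17 of 30 and 13 of 20 genes were called higher in WT, and 20 of 30 and 14 of 20 in p53 KO. In the small subunit the counts were 7 of 16 and 4 of 10 in WT and 10 of 16 and 7 of 10 in p53 KO. Of the 37 genes that share no exon base with another gene, 27 were called higher and 2 lower in WT and 30 and 0 in p53 KO. MRPS36 was not called with GCN2iB in either genotype.

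**Figure D2:**
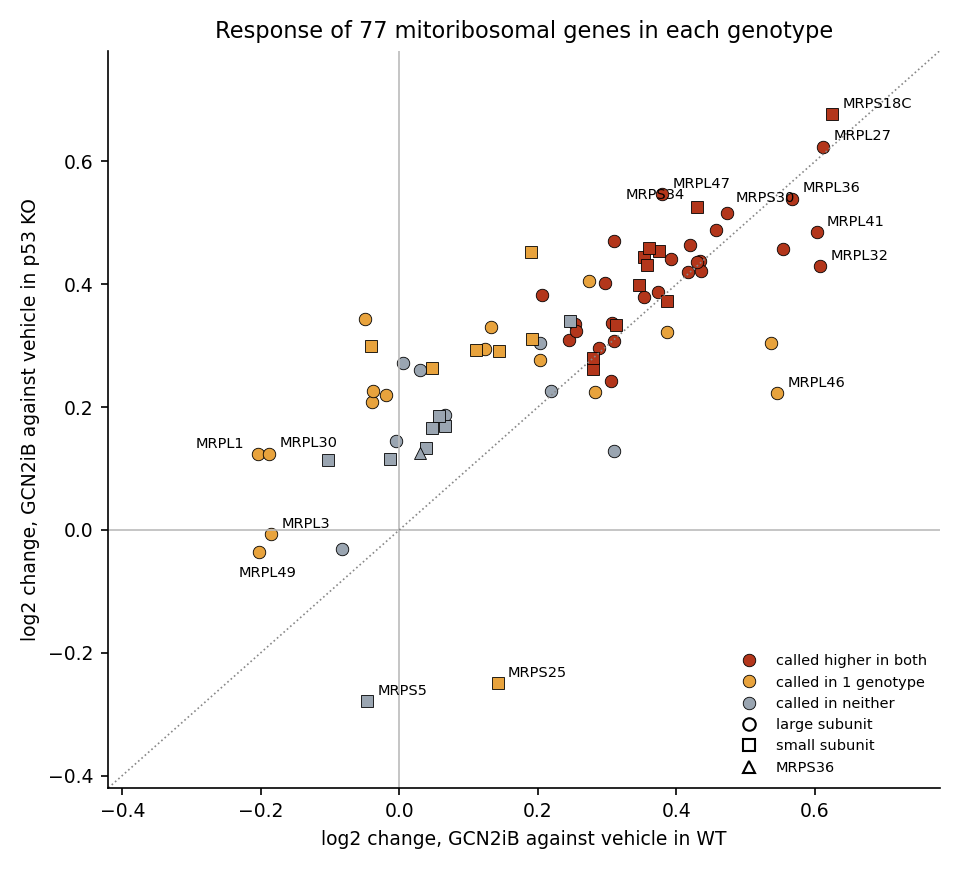
log2 change with GCN2iB in WT (x axis) and in p53 KO (y axis) for 77 mitochondrial ribosomal protein genes, by shape for the subunit and by colour for the calls. Most points lie in the upper right, 37 of them called higher in both genotypes, and the dotted line marks equal change.

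The largest rises were in both subunits. MRPS18C, a small subunit protein with a bacterial S18 fold, was at 5.21, 6.98, 5.94 and 6.44 CPM in WT vehicle and 10.3, 8.63, 8.99 and 10.2 CPM with GCN2iB. In p53 KO it was at 6.38, 6.24, 5.06 and 6.06 CPM and 7.11, 9.82, 9.21 and 11.8 CPM. Every treated library lay above every vehicle library of its genotype. The log2 change was 0.62 ± 0.13 (SE, adjusted p = 0.00103) in WT and 0.68 ± 0.13 (SE, adjusted p = 5.86e-04) in p53 KO, and 40.2% of the exon bases of this gene overlap ABRAXAS1 on the other strand. MRPL27, whose bacterial counterpart reaches into the peptidyl transferase centre, was at 47.5, 57.9, 65.7 and 65.3 CPM in WT vehicle and 83.7, 85.7, 97.1 and 95.6 CPM with GCN2iB, a 1.53-fold rise (adjusted p = 2.33e-04). In p53 KO it went from 53.4, 60.7, 61.3 and 64.7 CPM to 80.6, 94.00, 81.4 and 113 CPM, 1.54-fold (adjusted p = 2.41e-04). The groups of each genotype did not overlap.

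MRPL36, a small zinc-binding protein of the large subunit, was at 45.2, 43.9, 52.5 and 52.8 CPM in WT vehicle and 69.5, 70.2, 72.6 and 76.1 CPM with GCN2iB, and at 46.9, 49.2, 43.2 and 46.00 CPM and 56.04, 67.1, 67.4 and 78.7 CPM in p53 KO. Its log2 change was 0.57 ± 0.08 (SE, adjusted p = 3.62e-05) in WT and 0.54 ± 0.08 (SE, adjusted p = 8.13e-05) in p53 KO. MRPL32, which the m-AAA protease cuts after import, went from 120, 119, 127 and 136 CPM to 152, 190, 201 and 221 CPM in WT, 1.52-fold. In p53 KO it rose 1.35-fold. All treated libraries of both genes were above the vehicle libraries of the same genotype. MRPL41, a protein specific to mitochondrial ribosomes, rose from 217 ± 29.6 CPM to 329 ± 30.3 CPM in WT (SD, n = 4; adjusted p = 0.00746). In p53 KO it was at 167, 225, 197 and 244 CPM under vehicle and 261, 267, 242 and 393 CPM with GCN2iB (adjusted p = 0.0297), where the groups overlapped and the fourth treated library was far above the others.

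MRPS30, a mitochondria-specific protein that despite its name sits in the large subunit, had the smallest adjusted p of the group in both genotypes and was added after its values were seen. It was at 61.8, 58.6, 63.8 and 60.6 CPM in WT vehicle and 85.6, 86.2, 82.1 and 85.7 CPM with GCN2iB, and at 62.4, 57.1, 60.97 and 60.2 CPM and 83.6, 89.6, 80.4 and 90.4 CPM in p53 KO. The log2 change was 0.47 ± 0.06 (SE, adjusted p = 2.97e-06) in WT and 0.52 ± 0.06 (SE, adjusted p = 1.13e-06) in p53 KO, with no overlap. MRPL47, the counterpart of bacterial L29 near the exit of the peptide tunnel, rose from 49.9 ± 3.05 CPM to 72.96 ± 6.66 CPM in p53 KO (log2 change 0.55) and by 0.38 in WT. MRPS34, a small subunit protein with no bacterial counterpart, rose from 105 ± 10.8 CPM to 151 ± 23.00 CPM in p53 KO (log2 change 0.53) and by 0.43 in WT.

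**Figure D3:**
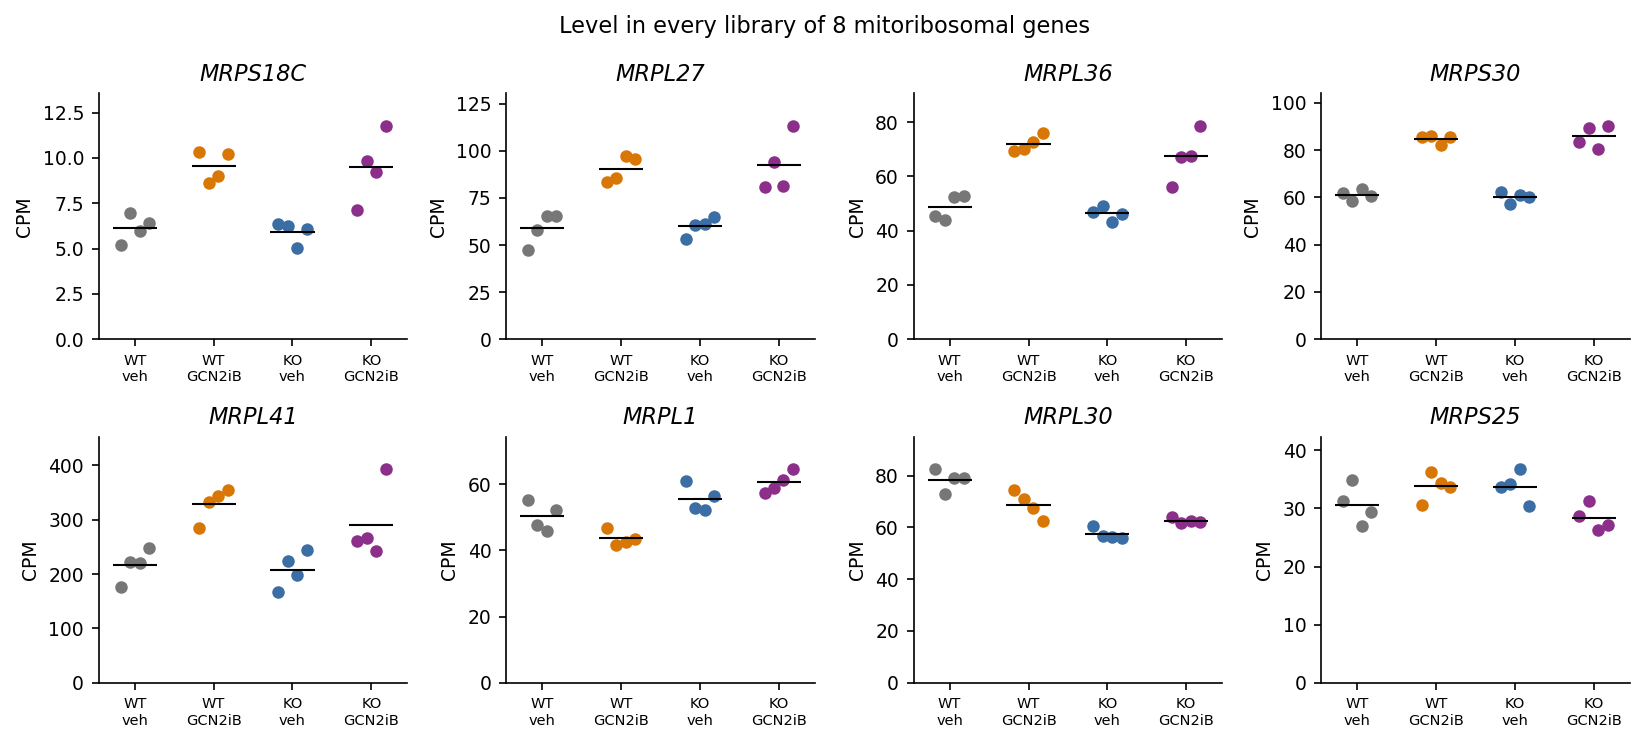
CPM of 8 mitochondrial ribosomal protein genes in every library, 4 points per group with a line at the mean, from 0. MRPS18C, MRPL27, MRPL36 and MRPS30 are higher with GCN2iB in both genotypes without overlap, MRPL41 overlaps in p53 KO. MRPL30 is lower in p53 KO than in WT under vehicle, and MRPL1 is higher and MRPS25 lower in p53 KO than in WT under GCN2iB.

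The 3 paralogs of bacterial S18 did not all pass. MRPS18C was called higher in both genotypes, as given above. MRPS18B rose in p53 KO, from 100, 108, 110 and 109 CPM to 126, 130, 128 and 139 CPM (log2 change 0.29 ± 0.06 (SE, adjusted p = 8.41e-04)), and was at 103, 106, 106 and 112 CPM and 121, 107, 117 and 116 CPM in WT, where the groups overlapped and the log2 change of 0.11 was not called. MRPS18A, the paralog placed in the large subunit, was at 18.7, 27.9, 27.02 and 25.8 CPM in WT vehicle and 32.7, 30.7, 26.9 and 24.8 CPM with GCN2iB and was called in neither genotype (adjusted p = 0.252 and 0.0960). Its exon bases overlap RSPH9 on the other strand by 47.0%. The difference between the responses of the genotypes was not called for any of these paralogs.

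Among other members named by role, MRPL58, MRPS12 and MRPS6 were called higher in both genotypes, and MRPL12 in p53 KO alone. MRPL58, a peptidyl-tRNA hydrolase built into the large subunit, rose by 0.31 on the log2 scale in WT and 0.47 in p53 KO. MRPS12, whose bacterial counterpart shapes the decoding site, rose by 0.38 and 0.45, and MRPS6 by 0.36 and 0.46. MRPL12, a stalk protein also reported to bind the mitochondrial RNA polymerase, was at 6.45, 7.54, 7.41 and 8.73 CPM in p53 KO vehicle and 9.57, 9.06, 7.999 and 12.9 CPM with GCN2iB, where it was called higher although the groups overlapped (adjusted p = 0.0368). In WT it was at 5.82, 8.60, 9.03 and 8.87 CPM and 10.9, 9.54, 9.02 and 10.03 CPM, and its log2 change of 0.27 was not called. Of its exon bases 68.2% overlap a gene on the same strand, which makes its level uncertain.

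Few members fell. In WT 4 large subunit genes were called lower with GCN2iB, each by less than 1.16-fold and each with overlapping groups. MRPL1, the protein of the mobile stalk at the tRNA exit, was at 55.3, 47.7, 45.97 and 52.2 CPM in WT vehicle and 46.9, 41.7, 42.4 and 43.4 CPM with GCN2iB (log2 change -0.20 ± 0.07 (SE, adjusted p = 0.0366)). MRPL49, MRPL30 and MRPL3 had log2 changes of -0.20, -0.19 and -0.19 in WT (adjusted p = 0.0229, 0.0272 and 0.0197) and were not called in p53 KO. The number called lower in WT was 0 without the fourth vehicle library and without the second, the third or the fourth GCN2iB library, and 1 without the first or the third vehicle library. Of all genes 8.82% to 11.4% were called lower in these fits. In p53 KO the 1 gene called lower was MRPS25, a mitochondria-specific small subunit protein, at 33.7, 34.1, 36.8 and 30.3 CPM under vehicle and 28.7, 31.2, 26.4 and 27.1 CPM with GCN2iB (log2 change -0.25 ± 0.08 (SE, adjusted p = 0.0341)). Its vehicle and treated libraries overlapped, and the call was lost without any 1 of 6 of these 8 libraries.

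Transcripts of these genes are short, so the effect of length was measured. The longest coding transcript of the 77 genes had a median of 1532 bases, against 3396 bases over 13406 tested protein-coding genes. Coding genes were put into 5 equal groups by length. In the shortest group (207 to 1949 bases) the median log2 change was 0.10 in WT and 0.13 in p53 KO, and 22.8% and 23.7% of these genes were called higher. In the longest group the medians were -0.09 and -0.08, with 6.19% and 5.26% called higher. The 57 mitochondrial ribosomal protein genes of the shortest group had a median log2 change of 0.31 in WT and 0.32 in p53 KO, with 32 and 38 called higher. In the next group (1950 to 2849 bases) 5 of 11 were called higher in each genotype, where 16.2% and 18.2% of all coding genes were. Of the 9 in longer groups, 4 were called higher in WT and 8 in p53 KO, too few to be read by length group. Among all 13439 tested protein-coding genes of any length, 1800 were called higher in WT and 1913 in p53 KO.

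**Figure D4:**
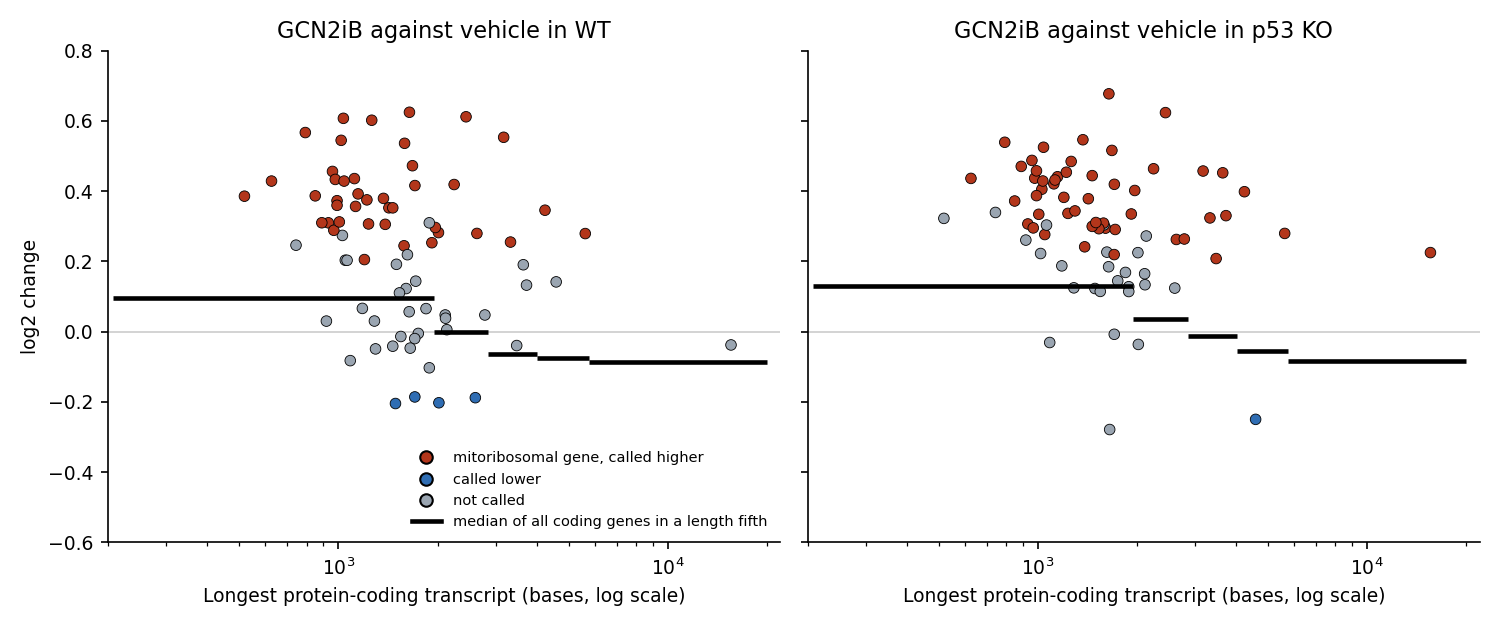
log2 change with GCN2iB against the length of the longest protein-coding transcript (log axis) for 77 mitochondrial ribosomal protein genes in WT (left) and p53 KO (right), coloured by call. Black lines are medians of all tested coding genes in 5 equal groups by length, the longest group drawn only in part, and they step down from 0.10 to -0.09 in WT and from 0.13 to -0.08 in p53 KO, and most points lie above them.

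With a smooth trend of each library on the length of the longest coding transcript taken out, 35 of 77 genes were called higher and 5 lower in WT, and 42 and 3 in p53 KO. The shares of the 13406 coding genes called higher and lower in that fit were 17.6% and 16.5% in WT and 16.1% and 12.9% in p53 KO. The median log2 change of the members fell to 0.15 in WT and 0.19 in p53 KO. This length measure was chosen after the data were seen. With the median length over all transcripts of a gene, where the group's median was 866 bases and that of all tested genes 994 bases, the fit gave 43 higher and 4 lower in WT and 50 and 1 in p53 KO, against 13.3% and 12.8% of all genes in WT and 11.9% and 9.36% in p53 KO. The trend on the longest coding transcript also differed between libraries of a group and was highest in replicate 4 in all 4 groups. At the 77 genes it was 0.23 on the log2 scale in the fourth p53 KO GCN2iB library and -0.02 to 0.03 in the other 3, and -0.15 in the first WT vehicle library and -0.07 to 0.04 in the other 3. Once the trend was taken out, the median deviation of the genes from their own mean was -0.07 to -0.04 in WT vehicle and 0.07 to 0.10 in WT GCN2iB, and -0.14 to -0.10 in p53 KO vehicle and 0.04 to 0.10 in p53 KO GCN2iB. The 77 genes share libraries and are not independent. Across them the log2 change and the log2 length of the longest coding transcript had a Pearson r of -0.29 in WT and -0.25 in p53 KO. Spearman rho was -0.36 and -0.33. With the length of the union of all exons, r was -0.17 in WT and -0.31 in p53 KO and rho -0.18 and -0.31. With the median length over all transcripts, r was -0.025 in WT and -0.039 in p53 KO and rho -0.028 and -0.027, so the relation depends on the length measure.

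Under vehicle 0 of 77 members were called higher and 10 lower in p53 KO against WT, 0% and 13.0% of them. Of all tested genes 9.63% and 12.1% were called higher and lower (edgeR quasi-likelihood test). The share called lower was near that of all genes, so it is not read as a result about the members. At an unadjusted p under 0.05 there were 14 of 77, against 32.9% of all tested genes. With library totals 3 were called higher and 8 lower, against 13.3% and 8.59% of all genes. The median log2 difference was -0.04, against 0.01 over all tested genes. The largest falls were in MRPL14, a protein at the subunit interface, and in MRPS27, a pentatricopeptide repeat protein of the small subunit. MRPL14 was at 74.2, 81.5, 82.7 and 94.3 CPM in WT and 51.7, 61.5, 53.3 and 69.98 CPM in p53 KO (log2 difference -0.49 ± 0.12 (SE, adjusted p = 0.00404)). MRPS27 was at 217, 198, 208 and 202 CPM in WT and 155, 148, 153 and 144 CPM in p53 KO (log2 difference -0.46 ± 0.06 (SE, adjusted p = 1.71e-06)). Neither gene's groups overlapped.

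MRPL30 was at 82.5, 72.8, 79.1 and 79.2 CPM in WT and 60.6, 56.8, 56.4 and 55.9 CPM in p53 KO (log2 difference -0.45), and MRPS10, counterpart of bacterial S10, at 49.7, 41.5, 42.95 and 44.6 CPM and 36.99, 32.9, 31.95 and 31.7 CPM (-0.42). Both were separated without overlap. MRPS18A had a log2 difference of -0.36 (adjusted p = 0.0429) with overlapping groups. The other 5 called lower were MRPS31, MRPS36, MRPL19, MRPS35 and MRPL35, at -0.32, -0.29, -0.29, -0.26 and -0.25. Of the members named by role, the 7 without a call lay between -0.12 and 0.13.

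The 10 genes lie on chromosomes 2, 5, 6, 12 and 13, and the median log2 difference of their neighbours within 1 Mb was below 0 for each of the 10, as it was for 45 of the 67 members that were not called. Over all tested genes 12.1% were called lower. MRPL14 (GRCh38 chr6:44113454-44127457) had 26 tested neighbours, of which 16 were called lower and 0 higher in p53 KO (median log2 difference -0.34). MRPS18A (chr6:43671303-43687791), on the same arm of chromosome 6, had 40 neighbours, 26 of them lower and 0 higher (median -0.29), and MRPS10 had 30, 14 lower and 1 higher (median -0.20). MRPL2, also on that arm, had 20 of 36 neighbours lower and 0 higher (median -0.26) but was itself not called (-0.05). These windows on chromosome 6 are close to each other and partly hold the same genes. MRPS36 (chr5:69217760-69230129) had 14 neighbours with 9 lower and 0 higher (median -0.30). For MRPS27, MRPS31, MRPS35 and MRPL19, 3 of 8, 4 of 11, 4 of 10 and 2 of 4 neighbours were lower and 0 higher, with medians of -0.16, -0.18, -0.23 and -0.19. MRPL30 and MRPL35 on chromosome 2 had 3 of 16 and 7 of 23 neighbours lower, and 2 and 3 higher, while MRPL33 on the same chromosome had 15 of 42 lower and 2 higher and was itself not called. The part of such regional differences in the level of these genes was not tested.

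**Figure D5:**
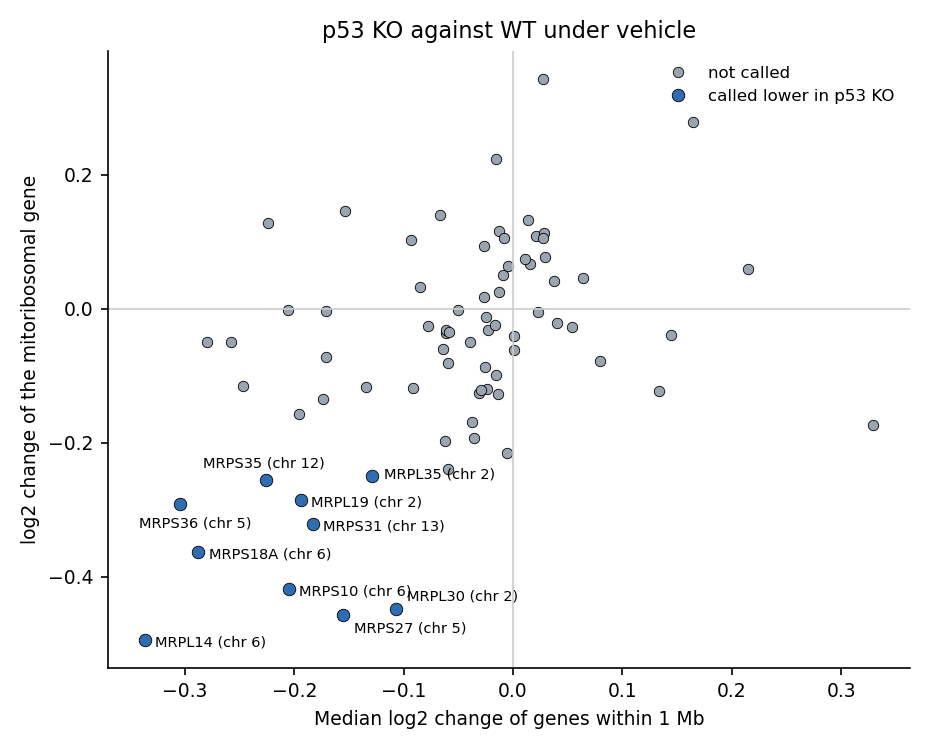
log2 difference of each of 77 mitochondrial ribosomal protein genes between p53 KO and WT under vehicle (y axis) against the median log2 difference of tested genes within 1 Mb (x axis). The 10 genes called lower, labelled with their chromosome, all have a neighbour median below 0, from -0.34 at MRPL14 to -0.11 at MRPL30, and so do 45 of the 67 genes not called.

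Under GCN2iB 8 genes (10.4%) were called higher and 4 (5.19%) lower in p53 KO against WT, where 12.7% and 11.2% of all tested genes were. The share called higher was near that of all genes. With size factors of DESeq2 these counts were 5 and 4, against 11.4% and 12.3% of all genes, and with library totals 10 and 3, against 14.1% and 10.3%. The median log2 difference was 0.01. MRPL1 was at 46.9, 41.7, 42.4 and 43.4 CPM in WT and 57.4, 58.8, 61.3 and 64.6 CPM in p53 KO (log2 difference 0.47 ± 0.07 (SE, adjusted p = 2.70e-05)), with no overlap. The other 7 called higher were MRPL55, MRPL11, MRPS6, MRPL49, MRPL58, MRPS18B and MRPL45, with log2 differences of 0.31, 0.29, 0.23, 0.23, 0.22, 0.18 and 0.16. The 4 called lower were MRPL14, MRPS10, MRPS25 and MRPS27, at -0.46, -0.30, -0.25 and -0.24. MRPL14, MRPS10 and MRPS27 were thus lower in p53 KO under both treatments. With any 1 of the 16 libraries left out, 1 to 6 genes were called higher, and without the fourth p53 KO GCN2iB library 9 were called lower. Of all genes 7.91% to 13.1% were called higher in those fits, and 12.8% lower without that library.

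The response to GCN2iB was not shown to differ between the genotypes for any of the 77 genes. The interaction term of the edgeR model called 0 higher and 0 lower, 0% and 0.00539% of all tested genes being called. DESeq2 called 0 and 0 members, against 0.116% of all genes in each direction, and limma voom 0 and 0, against 0% and 0.00539%. With the replicate number as a block in edgeR, 35 of all 18549 tested genes were called higher and 26 lower. At an unadjusted p under 0.05 there were 15 of 77 genes, against 9.46% of all tested genes. The median difference was 0.08 on the log2 scale and -0.02 without the fourth p53 KO GCN2iB library. The smallest p-values belonged to MRPL30, MRPS31 and MRPS25. MRPL30 changed by -0.19 in WT and 0.12 in p53 KO, a difference of 0.31 ± 0.09 (SE, adjusted p = 0.324). MRPS31 had log2 changes of -0.04 and 0.30 (difference 0.34 ± 0.10 (SE, adjusted p = 0.324)), and MRPS25 of 0.14 and -0.25 (difference -0.39 ± 0.12 (SE, adjusted p = 0.326)).

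Other genes of mitochondrial translation went in both directions. Of all tested genes 11.6% were called higher and 13.6% lower with GCN2iB in WT, and 11.4% and 8.71% in p53 KO. Of 5 proteins of the ribosome under other symbols, 3 were called higher and 1 lower in each genotype. AURKAIP1, a small subunit protein, rose from 201 ± 17.4 CPM to 298 ± 31.7 CPM in WT, while DAP3, a GTP-binding small subunit protein, fell from 200 ± 8.45 CPM to 152 ± 7.24 CPM (log2 change -0.39, adjusted p = 1.65e-05). GADD45GIP1, a large subunit protein also known as CRIF1, rose by 0.55 in WT and 0.62 in p53 KO on the log2 scale. Of 23 assembly and rRNA modification factors, 5 were called higher and 2 lower in WT and 7 and 0 in p53 KO. These included NGRN, a binding factor of the large rRNA, with log2 changes of 0.58 and 0.39, and the rRNA methyltransferase MRM3, with 0.40 and 0.50. Of 14 translation factors, 0 were called higher and 2 lower in WT and 2 and 1 in p53 KO. With so few calls, no result about these factors as a group is read from them. The elongation factor GFM1 fell by 0.39 in WT and by 0.20 in p53 KO on the log2 scale.

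Of the 13 mRNAs encoded in mitochondria, which this ribosome translates, 0 were called higher and 3 lower with GCN2iB in WT (median log2 change -0.08, range -0.46 to 0.52), and 0 and 1 in p53 KO (median -0.14, range -0.35 to 0.15). MT-CO1, a core subunit of cytochrome c oxidase, went from 5878 ± 807 CPM to 4884 ± 231 CPM in WT (adjusted p = 0.0104). In p53 KO against WT under vehicle, 11 of the 13 were called higher (median 0.42), while 0 of the 77 ribosomal protein genes and 9.63% of all tested genes were. Of 10 regulators of mitochondrial biogenesis, 4 were called higher and 0 lower in each genotype with GCN2iB: NRF1, YY1, PPRC1 and the protease CLPP. NRF1 had log2 changes of 0.29 and 0.37, and YY1 of 0.32 and 0.31. Of 78 tested cytosolic ribosomal protein genes, 35 were called higher and 2 lower in WT (median log2 change 0.24), and 58 and 0 in p53 KO (median 0.32). For these lists too, the shares of all tested genes with GCN2iB were 11.6% higher and 13.6% lower in WT. In p53 KO they were 11.4% and 8.71%.

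Since the members moved together, their promoters were searched for motifs. RefSeq (GRCh38.p14) windows of 250 bases before to 50 after the start were found for 69 of the 78 genes. The YY1 core AAGATGGC, on either strand, was in 20 of these 69 windows, against 5.16% of windows of tested protein-coding genes and 3.03% of all windows. The ETS site CCGGAAG, bound by GABPA among others, was in 29 of 69, against 18.7% and 10.7%. The NRF1 site GCGCANGCG was in 18.8% against 14.6% of tested protein-coding genes, the E-box CACGTG in 8.70% against 9.97%, and the ATF4 element TGATGNAA in 1.45% against 1.69%. Among the 34 genes with a window that were called higher in both genotypes, 9 held the YY1 core and 17 the ETS site, and among the other 34 tested genes 11 and 11. The sequences below run from 100 bases before to 50 bases after the start, with matches in capitals, for genes that rose in both genotypes and for MRPL1, which was called lower in WT. They are MRPS30 at chr5:44808847-44808996 (plus strand), MRPL36 at chr5:1799788-1799937 (minus strand), MRPL47 at chr3:179604589-179604738 (minus strand), MRPL27 at chr17:50373135-50373284 (minus strand), MRPS34 at chr16:1773085-1773234 (minus strand) and MRPL1 at chr4:77862730-77862879 (plus strand).
MRPS30: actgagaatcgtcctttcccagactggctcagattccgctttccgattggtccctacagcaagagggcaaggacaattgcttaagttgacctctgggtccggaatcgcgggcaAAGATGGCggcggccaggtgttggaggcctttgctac
MRPL36: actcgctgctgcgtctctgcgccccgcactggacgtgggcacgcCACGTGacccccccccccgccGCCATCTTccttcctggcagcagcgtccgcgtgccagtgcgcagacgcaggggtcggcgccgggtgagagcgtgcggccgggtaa
MRPL47: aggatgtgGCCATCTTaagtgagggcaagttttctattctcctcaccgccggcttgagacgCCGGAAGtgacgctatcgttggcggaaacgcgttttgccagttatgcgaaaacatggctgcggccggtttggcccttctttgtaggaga
MRPL27: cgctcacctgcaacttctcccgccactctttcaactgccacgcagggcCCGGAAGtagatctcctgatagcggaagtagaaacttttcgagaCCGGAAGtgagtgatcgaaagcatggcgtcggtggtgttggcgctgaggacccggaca
MRPS34: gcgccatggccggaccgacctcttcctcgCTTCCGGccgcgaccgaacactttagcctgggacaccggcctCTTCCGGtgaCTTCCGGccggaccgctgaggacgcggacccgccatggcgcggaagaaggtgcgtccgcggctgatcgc
MRPL1: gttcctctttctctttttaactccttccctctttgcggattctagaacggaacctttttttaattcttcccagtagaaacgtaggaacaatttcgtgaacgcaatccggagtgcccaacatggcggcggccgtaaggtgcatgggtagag
The YY1 core starts after the start site in MRPS30, and lies before it, on the other strand, in MRPL36 and MRPL47. MRPL36 also holds the E-box, and MRPL47 the ETS site. MRPL27 and MRPS34 hold the ETS site more than once, and MRPL1 holds no match in this window. The printed genes are only some of the members. MRPL3, MRPL30 and MRPL49, also called lower in WT, each held a match to 1 or more of the motifs in the window searched. MRPL41, MRPL18 and MRPS6, called higher in both genotypes, held none. A relation between motifs and response was not tested.

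Many of the members start head to head with another gene. Within 1000 bases of the start, 28 of 77 (36.4%) had the start of a gene on the opposite strand, against 16.4% of tested protein-coding genes. Of the 26 partners outside the group, 8 were called higher and 4 lower with GCN2iB in WT (median log2 change 0.12), and 7 and 2 in p53 KO (median 0.04), where 11.6% and 13.6% of all tested genes were called in WT and 11.4% and 8.71% in p53 KO. Of the 26 members that face them, 17 were called higher in WT and 21 in p53 KO. MRPL36 and its partner NDUFS6, a subunit of complex I whose start lies 34 bases away, both rose, by 0.57 and 0.54 on the log2 scale in WT and by 0.54 and 0.40 in p53 KO. Both genes of the pairs MRPL27 and EME1, MRPL51 and NCAPD2, and MRPL57 and SKA3 were also called higher in both genotypes. MRPL14 was called higher in both genotypes and its partner TMEM63B lower in both. MRPL47 rose by 0.38 in WT while its partner NDUFB5, another complex I subunit, fell by 0.26. In p53 KO MRPL47 rose by 0.55 and NDUFB5 was not called (log2 change 0.14). MRPS18C rose in both genotypes, while its partner HELQ, a DNA helicase, fell by 0.21 in WT and was not called in p53 KO (log2 change 0.07).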

How the data were processed

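The values deposited by the authors are unnormalized counts of reads per gene. Tools listed in the submitters' processing notes are HISAT2, featureCounts, Trim Galore and DESeq2, with GRCh38 as build. No source used here gives versions, annotation or strand setting, so reads of overlapping genes cannot be told apart. Gene identifiers were matched to GENCODE 29 (58261 of 62754), which also gave lengths. The tests were those of edgeR 4.0.16 under R 4.3.3 (filterByExpr, TMM, robust quasi-likelihood fit of 1 term per group over 16 libraries). Tests were two-sided, with Benjamini-Hochberg adjustment over the 18549 tested genes of each comparison at 0.05. CPM use scaled totals, and errors are SD over 4 libraries or SE of the fit. limma 3.58.1 and DESeq2 1.42.0 gave alternatives. Length trends were natural splines with 5 degrees of freedom per library, fitted on genes averaging 50 counts or more and removed through offsets. The fit and the trend were tested on simulated data. The level of the knocked-out gene is not reported here.

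Members, gene lists and rules were chosen with earlier results of these data known. Named are, per comparison, the 5 largest rises and falls among called members that reached 5 CPM in 1 of the groups, 8 members fixed by role (MRPL12, MRPL41, MRPL58, MRPS18A, MRPS18B, MRPS18C, MRPS12 and MRPS6), the 3 highest and 3 lowest per kilobase, untested members and the 3 smallest p-values of the interaction. The labels do not say that equal replicate numbers mark shared cultures. Of 24 pairs of libraries with equal numbers, 5 had correlated deviations above 0.1 (median 0.033). Without values for pairs of unequal numbers, this cannot decide whether equal numbers mark shared cultures. The main fit did not pair the samples, although replicate 1 had the lowest and replicate 4 the highest summed level in all 4 groups. With replicate number as a block, 15.4% of all genes were called higher with GCN2iB in WT, against 11.6% without.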

Additional observations from a re-analysis of the deposited data

Results flagged for a closer look

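In 124 groups of 4 libraries, the summed level and the CPM of named members were examined for a library whose gap to its nearest neighbour made up over 0.83 of the group's range (Dixon's criterion), which chance gives in about 1 of 20 groups. This picked out 9 values, 6 of them from the fourth p53 KO GCN2iB library. There the summed level was 8406 CPM, MRPL14 was at 107 CPM, MRPL37 at 426 CPM, MRPL41 at 393 CPM, MRPL55 at 96.5 CPM and MRPS34 at 185 CPM, each above the other 3 libraries of the group. The first WT vehicle library was low for MRPL12, at 5.82 CPM, and MRPL2, at 1.11 CPM. The first p53 KO vehicle library was low for MRPL55, at 49.1 CPM.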

How the results depend on the processing

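Values are from edgeR's quasi-likelihood test unless another tool is named, and the cause of each change below was not tested. Of 495 values computed under alternatives for the group as a whole, 422 stayed within 1.5 times the count reported or within the spread between libraries. The median log2 change with GCN2iB was 0.15 to 0.32 in WT and 0.19 to 0.35 in p53 KO over all alternatives run, and the medians of the genotype comparisons lay between -0.09 and 0.02 under vehicle and between -0.06 and 0.03 under GCN2iB. With the trend on the longest coding transcript removed, which was chosen after the data were seen, the medians with GCN2iB were 0.15 in WT and 0.19 in p53 KO. With that length measure the median of mitochondrial ribosomal protein genes in the shortest length group exceeded that of all coding genes there by 0.21 in WT and 0.19 in p53 KO, in place of 0.31 and 0.34 with the median length over all transcripts and all tested genes. Against a 1.2-fold minimum (glmTreat), 7 genes were called higher in each genotype with GCN2iB and 0 lower, where 2.26% of all genes were higher in WT and 1.42% in p53 KO. Under vehicle 3 members were lower in p53 KO, against 3.92% of all genes. Under GCN2iB 1 was higher and 0 lower in p53 KO, against 3.50% and 3.70% of all genes.

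The number called lower with GCN2iB in WT was 0 with no filter beyond 1 count, 2 with the compared groups fitted alone, with length and GC trends removed or without replicate 4 of both GCN2iB groups, and 0 to 4 with each library left out in turn. Of all genes 5.18% were lower with no filter, 12.8% to 15.1% in the fits that gave 2, and 8.82% to 15.3% with each library left out. In p53 KO the number lower was 3 with the coding transcript trend removed, 0 without replicate 4 of both GCN2iB groups and 0 to 2 with each library left out. The shares of all genes there were 12.9%, 6.82% and 6.36% to 9.21%. The number called higher in p53 KO under vehicle was 3 with library totals and 1 with no filter, with a mean of at least 50 counts, with the compared groups alone, with each of the 5 fits that removed a trend and without replicate 4 of both GCN2iB groups, and 0 to 1 with each library left out. Of all genes 13.3% were higher with library totals, 4.28% to 13.6% in the fits that gave 1, and 6.92% to 10.8% with each library left out. Under GCN2iB the number higher was 5 with DESeq2 size factors or with no filter, 3 with the compared groups alone, 4 without replicate 4 of both GCN2iB groups and 1 to 6 with each library left out. In that order, 11.4%, 4.82%, 10.8%, 11.9% and 7.91% to 13.1% of all genes were. The number lower under GCN2iB was 9 with length and GC or the coding transcript trend removed, 7 with the exon union trend removed or without replicate 4 of both GCN2iB groups, and 3 to 9 with each library left out. In that order, 15.7%, 18.1%, 14.3%, 11.8% and 8.90% to 13.1% of all genes were called lower. The median difference between the responses was -0.016 to 0.092 with each library left out.

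With the replicate number as a block (replicate block), 45 genes were called higher in WT and 58 in p53 KO with GCN2iB. Of all genes 15.4% were called higher in each genotype in that fit. Under vehicle 1 member was higher in p53 KO, against 12.4% of all genes, and under GCN2iB 14 were, against 16.3%. Block and median-length trend together gave 1 higher under vehicle and 9 lower under GCN2iB, against 12.6% and 17.3% of all genes. Of the members fixed by role and not called between genotypes, 4 of 7 under vehicle, 4 of 5 under GCN2iB and 5 of 8 in the interaction changed sign in at least 1 alternative, so no direction is given for them. Of 1454 values for single named members, 1268 kept their side of the threshold, 182 were no longer called and 4 became called.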
